A study of Mus musculus with 6 samples.

Results

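The genes described here are 38 genes of blood vessel endothelium, chosen by name with earlier results of these arrays known, and 37 of them could be measured. Ly6c1, the remaining gene, is read on these arrays only by a probe set that also reads Ly6c2, so it has no value of its own. Each gene is represented by the probe set with the highest mean level over the 6 arrays, out of 18194 genes measured in the same way. The genes were divided into 8 of sinusoidal, venous or lymphatic type, 7 of arterial type (6 measured) and 23 found in most endothelium, called pan-endothelial below.

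The arrays were made from lineage-negative, cKit-positive, Sca1-positive bone marrow cells, the fraction that holds the blood stem cells and early multipotent progenitors. The mice were 6 weeks old and carried 1 GFP reporter allele and 1 wild-type allele at Hes1, a Notch target gene, and both groups share that genotype. The 3 GFP-positive and the 3 GFP-negative arrays differ in the reporter signal by which the cells were sorted. In each group replicate 1 was from a female and replicates 2 and 3 were from males. The labels do not say whether animals were pooled or whether arrays came from separate animals, so the spread between arrays may be technical.

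Endothelial cells line blood and lymph vessels. They are held together by VE-cadherin (Cdh5) and claudin 5 (Cldn5), and they respond to vascular endothelial growth factors through the receptors Kdr, Flt1 and Flt4. In bone marrow most vessels are sinusoids, wide and leaky veins that bear Flt4 and scavenger receptors, while arterioles carry connexins and ephrin-B2 (Efnb2). Endothelial and blood stem cells share part of their programme, including Eng, Egfl7, Emcn, Podxl, Tek and Pecam1.

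All values are log2 intensities, and a difference of 1 is a doubling of intensity. Correlations between arrays over the measured genes lay between 0.934 and 0.961. Kit lay between 9.69 and 10.51 in GFP-positive arrays and between 10.47 and 10.72 in GFP-negative arrays, with the lowest value in GFP-positive replicate 1. Ptprc (CD45), carried by nearly all blood cells, lay between 10.99 and 11.35 in GFP-positive arrays and between 11.37 and 11.52 in GFP-negative arrays. Both genes were thus high in all 6 arrays, while Ly6a (Sca1) has no probe set that names it alone and so has no value here. A lower guide to background, 4.69, is the highest value of 3 Y-linked genes in the female arrays, and a higher guide, 5.59, is the highest value of Xist in the male arrays.

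Endothelial genes stood far above the rest of the series in 1 array, GFP-positive replicate 1. Of the 37 measured genes 31 were highest there, and 18 exceeded every other array by more than 2 on the log2 scale. Over all 18194 genes the same array was the highest for 27.0% and exceeded every other array by more than 2 for 0.671%. In none of the other 5 arrays did any of the 37 genes stand more than 2 above the rest. In those arrays 0.08% to 0.18% of all genes stood so high, so 0 of 37 is near that share. The median level of the 37 genes was 8.74 in GFP-positive replicate 1, 5.49 and 5.69 in GFP-positive replicates 2 and 3, and 5.49, 5.71 and 5.58 in GFP-negative replicates 1, 2 and 3. This array's height is among the values by which the genes were chosen, so these figures describe them and no test was made. Of the 122 genes of the whole array that stood more than 2 above every other array there, 18 were members.

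**Figure D1:**
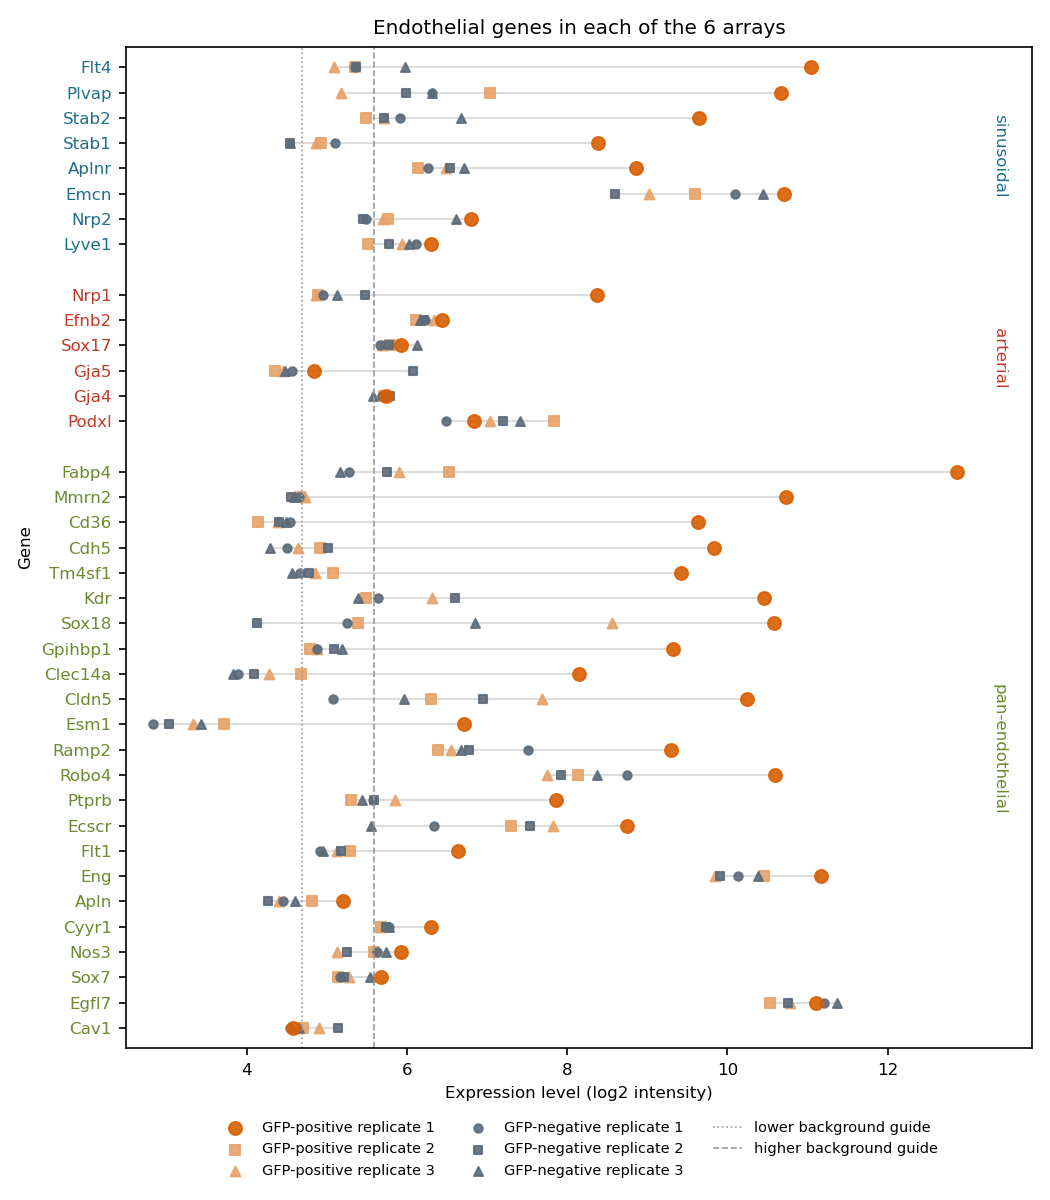
Level of each of the 37 measured endothelial genes (rows, grouped by class, log2 intensity on the x axis) in each of the 6 arrays, one symbol per array, with the background guides at 4.69 (dotted) and 5.59 (dashed). The large orange circle, GFP-positive replicate 1, lies to the right of all other symbols for 31 genes, while the arterial genes other than Nrp1 show no large gap on the probe sets drawn.

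Both genes of the endothelial junctions were highest in GFP-positive replicate 1. Cdh5 had 9.83 (replicate 1), 4.91 and 4.65 in the GFP-positive arrays, against 4.50, 5.01 and 4.29 in the GFP-negative arrays; all such lists run in the order of replicates 1, 2 and 3. Only the array of GFP-positive replicate 1 lay above the higher guide, and the remaining GFP-positive arrays lay within the range of the GFP-negative ones. The other 5 arrays were at 4.67 ± 0.30 (SD, n = 5), under the higher guide, so an excess over them is measured against background. The other 5 arrays all lay under that guide for 13 of the 37 genes, against 4462 of all 18194 genes. The second probe set of Cdh5 had an excess of 4.36 in GFP-positive replicate 1 over the mean of the other arrays, which lay between 4.02 and 5.17. Cldn5 was at 10.25, 6.30 and 7.69 in GFP-positive arrays, against 5.08, 6.95 and 5.97 in GFP-negative arrays. GFP-positive replicate 3 was also above the GFP-negative arrays for Cldn5, and replicate 2 was not.

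The receptors for vascular endothelial growth factor followed. Flt4, the receptor of the lymphatic growth factor VEGF-C and a marker of marrow sinusoids, was at 11.04, 5.36 and 5.09 in GFP-positive arrays, against 5.35, 5.36 and 5.98 in GFP-negative arrays. Kdr, the main signalling receptor, was at 10.45, 5.49 and 6.31 in GFP-positive arrays, against 5.64, 6.60 and 5.38 in GFP-negative arrays. For both genes the GFP-positive arrays other than replicate 1 overlapped with the GFP-negative arrays. Flt1, a receptor that also binds growth factor without strong signalling, reached 6.63 in GFP-positive replicate 1, and the other 5 arrays lay between 4.91 and 5.29. The co-receptor Nrp1, shared with the semaphorins, was at 8.37 in GFP-positive replicate 1 and between 4.86 and 5.48 in the rest. Nrp2, its relative in veins and lymphatics, was at 6.80, 5.76 and 5.70 in GFP-positive arrays, against 5.49, 5.45 and 6.62 in GFP-negative arrays, so GFP-negative replicate 3 nearly reached the highest value.

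Sinusoidal genes were high as a class, and all 8 were highest in GFP-positive replicate 1. Their median excess over the mean of the other 5 arrays was 3.01, and 5 of the 8 stood more than 2 above every other array. Stab2, a scavenger receptor that clears hyaluronan in sinusoids, was at 9.65, 5.49 and 5.72 in GFP-positive arrays, against 5.92, 5.71 and 6.68 in GFP-negative arrays. Stab1, a related receptor that macrophages also carry, was at 8.38, 4.93 and 4.87 in GFP-positive arrays, against 5.10, 4.54 and 4.54 in GFP-negative arrays. The excess was 3.74 for Stab2 and 3.59 for Stab1, and neither gene showed a second array of similar height. Plvap, which forms the diaphragms of fenestrated and sinusoidal vessels, was at 10.67, 7.03 and 5.18 in GFP-positive arrays, against 6.31, 5.99 and 6.32 in GFP-negative arrays. The apelin receptor Aplnr, a venous gene, was at 8.86 against 6.14 to 6.71 elsewhere, and its ligand gene Apln, counted as pan-endothelial, did not pass the higher guide in any array.

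The sinusoidal genes with the smallest excess were Lyve1, Nrp2 (given above, 1.00) and Emcn (1.16). Lyve1, a hyaluronan receptor of lymphatic vessels and some sinusoids, was at 6.30 in GFP-positive replicate 1 and between 5.51 and 6.12 in the rest, an excess of 0.43. Emcn, a sialomucin of veins and sinusoids that blood stem cells also carry, was at 10.71, 9.60 and 9.02 in GFP-positive arrays, against 10.09, 8.60 and 10.44 in GFP-negative arrays. Emcn was thus well above background everywhere, and the groups overlapped.

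Among the 6 measured arterial genes, on the probe sets with the highest mean, Nrp1 was the 1 gene more than 2 above every other array in GFP-positive replicate 1, and a second probe set of Podxl, given below, also passed that mark. By the probe sets with the highest mean, the median excess of the class was 0.08, close to the 0.08 of all genes. The connexin Gja5 was at 4.84, 4.36 and 4.45 in GFP-positive arrays, against 4.57, 6.08 and 4.48 in GFP-negative arrays, with its highest value in GFP-negative replicate 2. The connexin Gja4 lay between 5.72 and 5.74 in GFP-positive arrays and between 5.58 and 5.79 in GFP-negative arrays. Efnb2, the ligand that marks arteries, lay between 6.12 and 6.44 in GFP-positive arrays and between 6.16 and 6.23 in GFP-negative arrays. Sox17, a transcription factor of arteries and fetal stem cells, was highest in GFP-negative replicate 3 at 6.13, with 5.92 in GFP-positive replicate 1. Gja4, Efnb2 and Sox17 lay within 1 log2 unit of the higher guide in every array. Podxl, a sialomucin of arterial endothelium, podocytes and blood stem cells, was at 6.84, 7.83 and 7.04 in GFP-positive arrays, against 6.48, 7.20 and 7.41 in GFP-negative arrays. The difference between the classes rests on 8 and 6 genes of 1 array and was not tested.

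**Figure D2:**
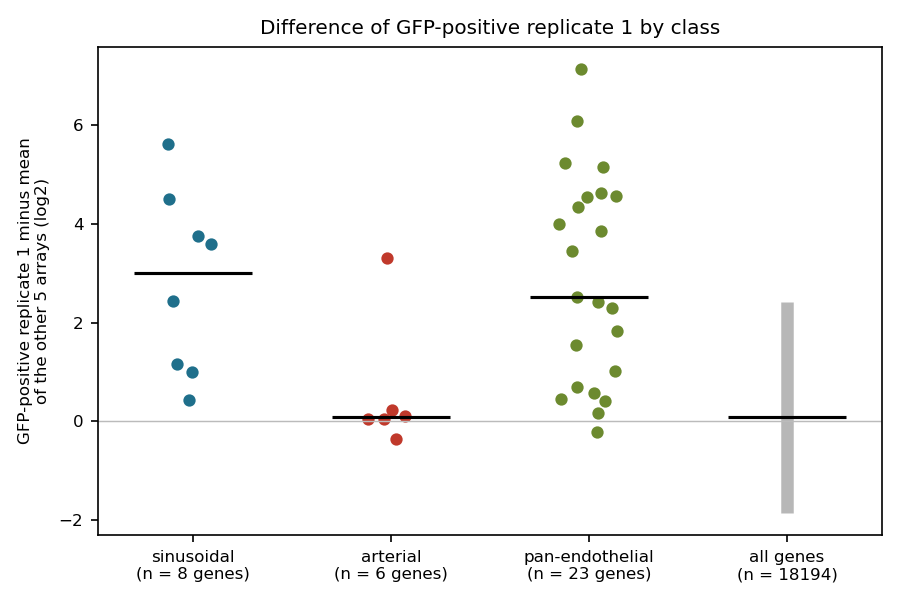
Level in GFP-positive replicate 1 minus the mean of the other 5 arrays (log2), one point per gene, for 8 sinusoidal, 6 arterial and 23 pan-endothelial genes, with black lines at the class medians of 3.01, 0.08 and 2.51. The grey bar spans the 1st to the 99th percentile of all genes, from -1.86 to 2.42, with its median at 0.08, and 5 of the 6 arterial genes lie near that median.

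The pan-endothelial genes had a median excess of 2.51, and 21 of the 23 were highest in GFP-positive replicate 1. Fabp4, a fatty acid carrier of capillary endothelium and fat cells, had the largest excess at 7.13. It was at 12.86, 6.53 and 5.90 in GFP-positive arrays, against 5.27, 5.75 and 5.17 in GFP-negative arrays. On the probe set with the highest mean, but not on the second, all 3 GFP-positive arrays lay above all GFP-negative arrays for Fabp4. Replicate 1 was far above the other 2. The partners of Fabp4 in lipid uptake did not share that order. Cd36, a fatty acid receptor also found on macrophages and platelets, was at 9.64, 4.15 and 4.39 in GFP-positive arrays, against 4.54, 4.41 and 4.50 in GFP-negative arrays. Gpihbp1, which carries lipoprotein lipase to the capillary lumen, was at 9.32, 4.79 and 4.88 in GFP-positive arrays, against 4.88, 5.10 and 5.19 in GFP-negative arrays. Outside GFP-positive replicate 1 both genes stayed under the higher guide in every array.

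A pair of proteins that bind each other on the endothelial surface showed the same pattern. Mmrn2, a matrix glycoprotein, was at 10.73, 4.67 and 4.73 in GFP-positive arrays, against 4.65, 4.56 and 4.59 in GFP-negative arrays. Clec14a, its lectin-like receptor, was at 8.15, 4.67 and 4.28 in GFP-positive arrays, against 3.90, 4.09 and 3.83 in GFP-negative arrays. The other 5 arrays were at 4.64 ± 0.07 (SD, n = 5) for Mmrn2, the tightest background among the genes with an excess over 5. Tm4sf1, a membrane protein of endothelial microdomains, was at 9.42 in GFP-positive replicate 1 and between 4.57 and 5.08 elsewhere. Esm1, a proteoglycan secreted by sprouting tip cells, was at 6.71 there and between 2.83 and 3.72 elsewhere. Ptprb, a phosphatase that acts on Tek and VE-cadherin, was at 7.85 there and between 5.31 and 5.85 elsewhere.

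Of the SoxF transcription factors, which act together in vessel formation, Sox18 stood out. It was at 10.58, 5.38 and 8.56 in GFP-positive arrays, against 5.25, 4.13 and 6.86 in GFP-negative arrays. GFP-positive replicate 3 was the next highest, and the groups overlapped because GFP-negative replicate 3 exceeded GFP-positive replicate 2. Sox7 lay between 5.14 and 5.67 in GFP-positive arrays and between 5.17 and 5.54 in GFP-negative arrays, near the higher guide. Sox17, given above, showed no such height either.

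Robo4, Ramp2, Eng and Egfl7 were above the higher guide in all 6 arrays. Robo4, a guidance receptor also known on blood stem cells, was at 10.59, 8.13 and 7.75 in GFP-positive arrays, against 8.74, 7.92 and 8.37 in GFP-negative arrays. Ramp2, the partner subunit of the adrenomedullin receptor, was at 9.29, 6.39 and 6.55 in GFP-positive arrays, against 7.52, 6.77 and 6.68 in GFP-negative arrays. In both genes GFP-positive replicate 1 was highest; the remaining GFP-positive arrays were below all GFP-negative arrays for Ramp2 and overlapped with them for Robo4. Eng, a co-receptor for BMP and TGF-beta ligands, was at 11.17, 10.46 and 9.84 in GFP-positive arrays, against 10.13, 9.91 and 10.38 in GFP-negative arrays. The second probe set of Eng was highest in GFP-negative replicate 1 at 8.80, with 7.90 in GFP-positive replicate 1. Egfl7, a secreted factor of endothelium and blood progenitors, was at 11.10, 10.53 and 10.78 in GFP-positive arrays, against 11.21, 10.76 and 11.37 in GFP-negative arrays. Egfl7 had an excess of 0.17, so the member with the highest mean level was among those that did not mark the array. Ecscr, a surface protein of endothelial cell migration, was at 8.74, 7.30 and 7.82 in GFP-positive arrays, against 6.33, 7.54 and 5.56 in GFP-negative arrays, the last of them just under the higher guide.

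The last pan-endothelial genes had small differences on the probe sets with the highest mean. Nos3, the endothelial nitric oxide synthase, lay between 5.13 and 5.92 in GFP-positive arrays and between 5.25 and 5.74 in GFP-negative arrays. Cyyr1, a small membrane protein, was at 6.30 in GFP-positive replicate 1 and between 5.67 and 5.78 elsewhere. Its second probe set was at 7.37 there and between 4.97 and 5.70 elsewhere, an excess of 2.01. Cav1, the main caveolar protein, did not exceed 5.14 in any array and was not raised in GFP-positive replicate 1, where it was at 4.58. In all, 11 of the 37 genes passed the higher guide in GFP-positive replicate 1 and in no other array, 10 passed it in all 6 arrays, and Cav1 and Apln passed it in none. Over all 18194 genes these counts were 299, 11343 and 4163.

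The choice of probe set changed the picture for some genes. The 37 genes have 74 probe sets that name no other gene, and 35 of these stood more than 2 above every other array in GFP-positive replicate 1. Over all probe sets with 1 gene symbol the share was 0.769%. Of the 20 genes with several probe sets, 6 had all of them past that mark, 7 had some and 7 had none. For Nrp2, Podxl and Flt1 the probe set with the highest mean fell short of it while another passed. One further probe set of Nrp2 was at 9.82 in GFP-positive replicate 1 and between 4.37 and 4.88 in the other 5 arrays. The second probe set of Podxl was at 7.07 there and between 3.94 and 4.76 elsewhere, while the first had its highest value in GFP-positive replicate 2. The second probe set of Aplnr was at 9.75 there and between 2.66 and 3.08 elsewhere, an excess of 6.85 against 2.44 for the first. Counting every probe set, 21 of the 37 genes had at least 1 past the mark. Of the arterial genes, Nrp1 had 3 of its 4 probe sets past the mark and Podxl 1 of its 2. None of the 8 probe sets of Efnb2, Sox17, Gja4 and Gja5, the other measured arterial genes, passed it. For those genes 0 is near the 0.769% of all probe sets.

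**Figure D3:**
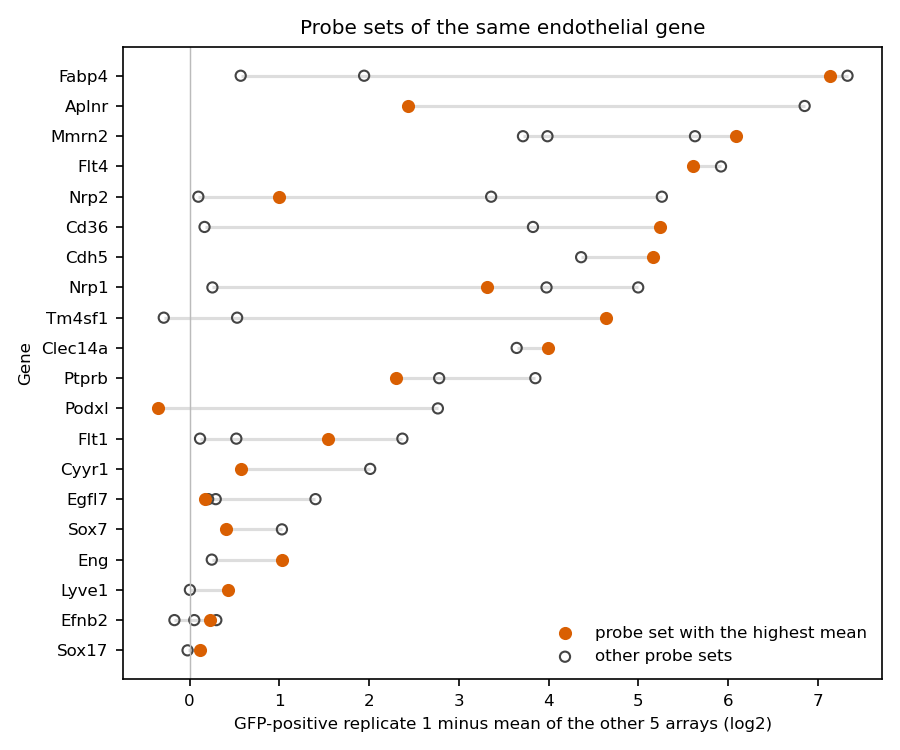
Level in GFP-positive replicate 1 minus the mean of the other 5 arrays (log2, x axis) for every probe set of the 20 endothelial genes with several probe sets. Filled orange points are the probe sets with the highest mean and open circles the others. Nrp2 and Podxl have open circles at 5.26 and 2.77 far to the right of their filled points at 1.00 and -0.36, and Efnb2 and Sox17 have none. Tm4sf1 has open circles at -0.29 and 0.53 far to the left of its filled point at 4.63.

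The upstream sequences were compared because many of these genes were high in the same array. RefSeq promoter windows (GRCm38.p6) were found for 23 of the 38 genes, in 27 windows, and the 250 bases before the start were searched on both strands for AGGAAG or CGGAAG, forms of the ETS family motif, and for ACAAAG or ACAATG, forms of the SOX motif. An ETS form was present in 14 of the 27 windows, or 51.9%, against 39.2% of all 32851 windows. Of the 10 matched genes that stood more than 2 above every other array, 4 had an ETS form, in 40% of their windows, against 60% of the 15 windows of measured genes that did not stand so high. A SOX form was present in 1 of the 10, against 22.2% of all member windows and 25.2% of all windows. The 4 with an ETS form are shown, on the gene's strand with the motif in capitals, to display the sequence context of genes from the receptor, co-receptor and surface protein groups. The Nrp1 window is chr8:128358823-128359072 (plus strand), Stab1 is chr14:31168642-31168891 (minus strand), Stab2 is chr10:87007943-87008192 (minus strand) and Tm4sf1 is chr3:57301989-57302238 (minus strand).
Nrp1: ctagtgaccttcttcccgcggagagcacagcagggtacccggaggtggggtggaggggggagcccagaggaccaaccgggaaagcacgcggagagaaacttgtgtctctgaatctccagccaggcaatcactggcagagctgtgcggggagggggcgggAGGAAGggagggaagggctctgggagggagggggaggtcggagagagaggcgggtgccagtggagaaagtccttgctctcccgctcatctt
Stab1: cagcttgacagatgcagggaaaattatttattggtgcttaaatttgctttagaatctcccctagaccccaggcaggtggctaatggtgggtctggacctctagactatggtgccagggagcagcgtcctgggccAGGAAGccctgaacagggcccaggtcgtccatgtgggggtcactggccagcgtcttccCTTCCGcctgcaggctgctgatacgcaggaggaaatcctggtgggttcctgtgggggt
Stab2: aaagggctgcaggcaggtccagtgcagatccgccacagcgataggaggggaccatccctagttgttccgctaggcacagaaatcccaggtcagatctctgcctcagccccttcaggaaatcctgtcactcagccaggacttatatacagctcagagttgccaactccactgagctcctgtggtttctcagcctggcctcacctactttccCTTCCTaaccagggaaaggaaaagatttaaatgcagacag
Tm4sf1: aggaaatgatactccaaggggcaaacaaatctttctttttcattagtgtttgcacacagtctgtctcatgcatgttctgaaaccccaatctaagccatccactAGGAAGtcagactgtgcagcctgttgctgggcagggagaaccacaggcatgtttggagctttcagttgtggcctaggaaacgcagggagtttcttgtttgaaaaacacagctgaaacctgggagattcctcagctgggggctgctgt
The Stab1 window holds 2 matches and the other windows 1 each. A match describes letters and not a bound site.

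The sort comparison asks how progenitors with a GFP signal from the Hes1 locus differ from those without it. With all 6 arrays the endothelial genes had a median log2 fold change (GFP-positive minus GFP-negative) of 0.67, against 0.01 over all genes, and 32 of the 37 were above 0. With GFP-positive replicate 1 left out the median was 0.01, against -0.03 over all genes, and 19 of the 37 were above 0. With both replicate 1 arrays left out, which leaves the 4 male arrays, it was -0.08 against -0.03. The height of the module in the GFP-positive group thus rested on that single array, which belongs to the values by which the genes were chosen.

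By limma, adjusted by Benjamini-Hochberg over all genes, none of the 37 genes passed an adjusted p of 0.05 with 6 arrays, and the count over the 18194 genes was also 0 (0.0%). The smallest adjusted p among the 37 was 0.743, for Ecscr, whose log2 fold change was 1.48 ± 0.60 (SE). Ecscr was also the only one of them with an unadjusted p under 0.05, a mark reached by 6.71% of all genes. The spread that GFP-positive replicate 1 adds to its group enters each error: Fabp4 had the largest fold change, 3.03 ± 1.82 (SE, adjusted p = 0.902 by limma), and Mmrn2 had 2.11 ± 1.65 (SE, adjusted p = 0.957 by limma). All GFP-positive arrays lay above all GFP-negative arrays for Fabp4, Mmrn2, Clec14a and Tm4sf1, 4 of the 37, and below them for 0, against 5.89% and 5.51% of all genes. For Mmrn2 that order rested, beside replicate 1, on 4.67 and 4.73 in GFP-positive arrays against at most 4.65 in GFP-negative arrays. On the second probe set of each of these 4 genes the groups overlapped. For Fabp4 that probe set was at 5.18 in GFP-positive replicate 3, under the 5.31 of GFP-negative replicate 3.

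Without GFP-positive replicate 1, limma again called 0 of the 37 genes and 0 of all genes (0.0%), and the smallest adjusted p among the 37 was 0.618. Of the 37 genes 35 had a fold change between -1 and 1. The exceptions were Sox18 at 1.56 ± 1.24 (SE) and Ecscr at 1.08 ± 0.62 (SE), both with wide errors, and Cldn5 was just inside at 0.99 ± 0.70 (SE). Fabp4 had 0.82 ± 0.29 (SE) and Clec14a 0.54 ± 0.20 (SE), with unadjusted p-values of 0.039 and 0.042 by limma. They were the 2 genes higher at an unadjusted p under 0.05, and 0 were lower, against 3.76% higher and 3.76% lower of all genes, or 7.52% in all. The sinusoidal genes had a median of -0.22, and 1 of 8 was above 0. The GFP-positive arrays lay above all GFP-negative arrays for 4 of the 37 genes and below for 6, against 10.4% and 13.2% of all genes. In the 4 male arrays 0 of the 37 had an adjusted p under 0.05 (0.0% of all genes) or an unadjusted p under 0.05 by limma, against 4.09% higher and 3.55% lower of all genes (7.65%). Complete separation of the male groups was seen for 5 of the 37 genes with GFP-positive higher and for 8 with GFP-positive lower, against 16.3% and 20.4% of all genes.

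**Figure D4:**
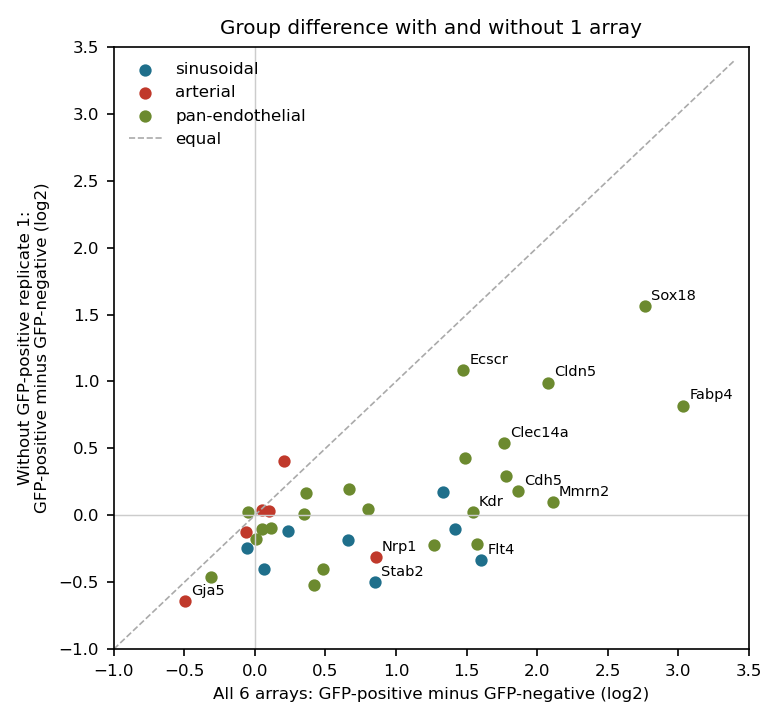
Log2 fold change (GFP-positive minus GFP-negative) of the 37 endothelial genes with all 6 arrays (x axis) and without GFP-positive replicate 1 (y axis), coloured by class, with a dashed line of equality. Most genes fall to near 0 on the y axis, with a median of 0.01, and Sox18, Ecscr and Cldn5 remain near 1 or above.

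Other endothelial genes, a list of 65 drawn up beside the module with 64 measured, showed the same array at the top less uniformly. GFP-positive replicate 1 was highest for 37 of them and exceeded every other array by more than 2 for 10, against the 27.0% and 0.671% of all genes given above. Their median excess was 0.68. Sele, an adhesion molecule that marrow sinusoids carry without inflammation, was at 10.34, 5.12 and 4.76 in GFP-positive arrays, against 5.11, 4.95 and 4.96 in GFP-negative arrays. Dnase1l3, a nuclease of sinusoids and some macrophages, was at 9.69 in GFP-positive replicate 1 and between 4.61 and 5.12 elsewhere. Ackr1, a chemokine-binding receptor of venules and red cells, was at 10.40 there and between 6.29 and 6.45 elsewhere. Both were flat over the remaining arrays.

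Tek, Tie1 and Pecam1, which blood cells also carry, differed among themselves. Tek, the angiopoietin receptor, was at 8.71, 7.67 and 7.04 in GFP-positive arrays, against 5.40, 4.81 and 4.74 in GFP-negative arrays, and all 3 GFP-positive arrays were above all GFP-negative ones. Its sister receptor Tie1 lay between 7.99 and 8.60 in GFP-positive arrays and between 7.31 and 7.52 in GFP-negative arrays, with its highest value in GFP-positive replicate 2. Pecam1, present on endothelium and many blood cells, was at 10.51, 10.01 and 7.41 in GFP-positive arrays, against 10.38, 9.68 and 9.55 in GFP-negative arrays, and so was both highest and lowest in GFP-positive arrays. By limma 0 of the 64 genes passed an adjusted p of 0.05 over all genes, while 6 had higher and 3 had lower values with an unadjusted p under 0.05, against 3.33% and 3.38% of all genes.

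Ligands and partners of the member receptors were counted in the same way. Of 35 measured genes for growth factors, ephrins, semaphorins, slits and their receptors, 15 were highest in GFP-positive replicate 1 and 2 exceeded every other array by more than 2, or 42.9% and 5.71%, against 27.0% and 0.671% of all genes. Their median excess was 0.22, against 0.08 over all genes. Those 2 were Ephb4, the venous receptor of Efnb2, and Acvrl1, a receptor that works with Eng. Ephb4 was at 10.09, 7.65 and 7.73 in GFP-positive arrays, against 6.40, 6.32 and 6.95 in GFP-negative arrays, so all GFP-positive arrays lay above. Acvrl1 was at 7.99 in GFP-positive replicate 1 and between 5.08 and 5.62 elsewhere. Tgfbr3, another co-receptor for TGF-beta ligands, was at 11.00, 9.41 and 8.96 in GFP-positive arrays, against 8.45, 8.51 and 8.46 in GFP-negative arrays, without overlap. The growth factor gene Vegfa, the ligand of Kdr and Flt1, was at 8.52, 8.70 and 7.33 in GFP-positive arrays, against 8.84, 7.35 and 6.72 in GFP-negative arrays.

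Markers of other cell types that the sort could hold moved with the module to different degrees, and their part in it was not tested. In RNA from sorted cells, fewer cells of a type and less RNA per cell cannot be told apart. The summed intensity of the 37 endothelial genes was 32245 in GFP-positive replicate 1 and between 5159 and 7499 in the other 5 arrays. Stromal markers summed to 11673 in GFP-positive replicate 1 and to between 1792 and 2958 in the others, with 15 of 22 measured genes highest there and 5 more than 2 above every other array, against 27.0% and 0.671% of all genes. Cxcl12, the chemokine of marrow stroma and endothelium, was at 12.52, 9.27 and 8.33 in GFP-positive arrays, against 5.34, 5.52 and 5.38 in GFP-negative arrays. The collagen genes Col1a2 and Col1a1 had 10.42 and 8.96 in GFP-positive replicate 1 and at most 7.70 and 5.61 in the others. Cxcl12, Col1a2 and Col1a1 had the largest differences of the stromal list. A linear sum is weighted to the genes of highest level, in GFP-positive replicate 1 above all Cxcl12, so it does not show a rise of the whole stromal list. The median excess of the stromal list was 0.65, against 0.08 over all genes, with a range from -0.37 to 5.75. Adipocyte markers summed to 3442 in GFP-positive replicate 1 and to between 992 and 1617 in the others, with 5 of 10 highest there and 3 past 2, against the same shares of all genes. Adipoq, the fat cell and marrow stromal hormone, was at 9.50, 6.26 and 3.27 in GFP-positive arrays, against 3.57, 3.25 and 3.69 in GFP-negative arrays, beside the high Fabp4. Lpl, the lipase that Gpihbp1 carries, was at 10.30, 8.15 and 5.43 in GFP-positive arrays, against 5.86, 4.08 and 4.82 in GFP-negative arrays. Pparg, the regulator of fat cell formation, was at 9.13 in GFP-positive replicate 1 and between 5.64 and 6.38 elsewhere. Adipoq, Lpl and Pparg had the largest differences of the adipocyte list. Its median excess was 0.28, against 0.08 over all genes, with a range from -0.62 to 5.49.

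Summed markers of macrophages, megakaryocytes and red cells were not highest in that array. Macrophage markers summed to 6794, 8843 and 4511 in the GFP-positive arrays, against 2968 to 4413 in GFP-negative arrays, with 8 of 20 highest in GFP-positive replicate 1 and 1 past 2, against 27.0% and 0.671% of all genes. Mrc1, a scavenger receptor of macrophages and sinusoids, was at 9.38, 6.93 and 5.35 in GFP-positive arrays, against 7.12, 3.86 and 4.73 in GFP-negative arrays. C1qb, a complement subunit, was highest in GFP-positive replicate 2 at 11.78, with 10.78 in replicate 1, and Spic, a factor of iron-handling macrophages, was lowest in GFP-positive replicate 1 at 4.08. Megakaryocyte markers summed to between 8620 and 10936 in GFP-positive arrays and between 2578 and 4298 in GFP-negative arrays, with the highest sum in replicate 2. Of the 15 measured, 4 were highest in GFP-positive replicate 1 and 0 were past 2, against 27.0% and 0.671% of all genes. The platelet genes Pf4 and Vwf had 12.24 and 8.94 in GFP-positive replicate 1, against 12.22 and 9.73 in GFP-positive replicate 2. Vwf is also on the list of other endothelial genes. Clec1b reached 7.04 in GFP-positive replicate 1, with 5.65 as the next highest value. Erythroid markers summed to between 13646 and 18360 in GFP-positive arrays and between 8952 and 10075 in GFP-negative arrays, with the lowest GFP-positive sum in replicate 1. Of the 14 measured, 3 were highest in GFP-positive replicate 1 and 0 were past 2, against the same shares of all genes. Ermap and Klf1 had 10.12 and 9.11 in GFP-positive replicate 1, each below another GFP-positive array, and the transferrin receptor Tfrc had 10.47 there and at most 10.04 elsewhere. Stem and progenitor markers summed to 41611 in GFP-positive replicate 1, 39390 and 39673 in the other GFP-positive arrays, and between 46216 and 47903 in GFP-negative arrays. Of the 22 measured, 4 (18.2%) were highest in GFP-positive replicate 1 and 0 were past 2, with a median excess of -0.14. The values over all genes were 27.0%, 0.671% and 0.08. Hoxb5 and Esam, which mark stem cells, had 8.42 and 9.35 in GFP-positive replicate 1 and at most 7.20 and 8.71 elsewhere. Esam is also on the list of other endothelial genes. Kit had the lowest excess of the stem and progenitor list, -0.83. Of the 8 measured lineage markers of the depletion, 2 were highest in GFP-positive replicate 1. Of them 0 exceeded every other array by more than 2 there. These are 25% and 0%, near the 27.0% and 0.671% of all genes. The T cell genes Cd3g, Cd4 and Cd5 had 5.56, 8.23 and 4.20 in GFP-positive replicate 1. GFP-negative replicate 1, the other female array, had a summed endothelial intensity of 6561, within the range of the male arrays.

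**Figure D5:**
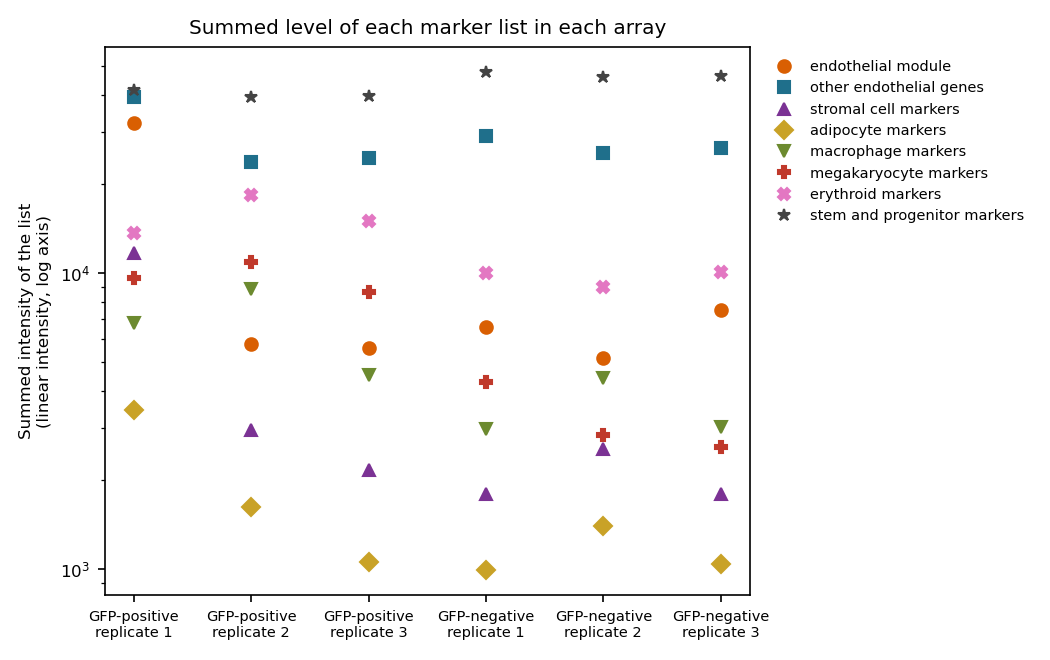
Summed linear intensity of each marker list (log axis) in the 3 GFP-positive and the 3 GFP-negative arrays, one symbol per list. Endothelial, stromal and adipocyte markers have their highest sum in GFP-positive replicate 1 (32245, 11673 and 3442), while macrophage, megakaryocyte and erythroid markers have theirs in GFP-positive replicate 2.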

How the data were processed

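The deposited intensity values were made by the authors with RMA, per the submitters' processing notes, which name neither a version nor options. They are linear, not logged, and cover 45101 probe sets on each array. RMA includes quantile normalisation and compresses ratios of weakly expressed genes. Per the labels' protocols, 5 ng of RNA was amplified and labelled with biotin. From the deposited intensities (array medians 74.0 to 78.49), log2 was taken here with no pseudocount. The platform annotation gave 1 gene symbol for 34958 probe sets, several for 932 and none for 9211, and the probe set with the highest mean stood for each of 18194 genes, 18146 of which matched a RefSeq symbol.

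Groups were compared by limma 3.58.1 (lmFit and eBayes, R 4.3.3), without covariates, Benjamini-Hochberg over all genes, threshold 0.05. The pipeline was tested on simulated data. The members, their classes and the marker lists were chosen with earlier results of these data known. Genes named were all members, the 3 genes of each marker list with the largest absolute difference between GFP-positive replicate 1 and the mean of the other arrays, the 10 genes outside the module with the largest gap, and Kit, Ptprc and Pecam1 as checks of the sort. Vegfa and Tie1 fall outside that rule and were chosen after their values were seen. The stem marker Ly6a was also meant as a check but has no probe set that names it alone. Same-numbered arrays were not treated as pairs in the main fit. Their deviations from the group means correlated at 0.12, 0.05 and 0.09, which cannot show whether they shared an animal. The number of arrays limits the precision.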

Additional observations from a re-analysis of the deposited data

How the results depend on the processing

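The number of arrays limits every value, and ratios of genes near background are compressed. The count of called genes stayed at 0 under 8 other settings (mean or second highest probe set, renewed quantile normalisation, array median centring, intensity trend, replicate block, sex as a covariate and 4 male arrays) and was 1 and 2 with genes below the 40th or 60th percentile of mean level left out, where fewer genes were tested. It ranged from 0 to 5 with single arrays left out, with 5 without GFP-positive replicate 3, and 1221 genes had an unadjusted p under 0.05. Of the endothelial genes 0 were called in each of these fits. With all 6 arrays 1 had an unadjusted p under 0.05, and over the other fits 0 to 3 had one, with 3 without GFP-positive replicate 2. Their median log2 fold change of 0.67 ranged from 0.01 to 1.18 with single arrays left out, with the low value without GFP-positive replicate 1, and was -0.08 in the 4 male arrays, 0.21 with the 60th percentile filter, and 0.85 with the 40th percentile filter and with the second highest probe set. Their median excess in GFP-positive replicate 1, 2.41, was 2.51 with the second highest probe set, 2.31 with array median centring, 2.51 and 1.09 with the percentile filters, which kept 15 and 4 of the 37 genes. Leaving out 1 of the other 5 arrays gave an excess between 2.34 and 2.45. With the replicate number as a block 0 genes were called, the median was 0.67 and the smallest adjusted p by limma was 0.352. The labels do not say whether same-numbered arrays shared more than the number and sex, and the block changed no call.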

Other observations

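Outside the module, the 10 genes with the largest gap between GFP-positive replicate 1 and the highest of the other 5 arrays were Abcc9, Gpm6a, Kcnj8, Serping1, Lrg1, Sele, Nid1, Chrdl1, Sparc and Dnase1l3. Abcc9 and Kcnj8 encode the subunits of a potassium channel closed by ATP, known from pericytes and smooth muscle. Abcc9 was at 11.72 in GFP-positive replicate 1 and between 3.96 and 4.46 in the other 5 arrays, the largest gap of all 18194 genes. Kcnj8 was at 9.45 there and between 3.70 and 3.91 elsewhere. Gpm6a, a membrane glycoprotein, was at 10.44 there and between 2.51 and 3.75 elsewhere. Nid1, a basement membrane protein, was at 10.59 there and between 5.12 and 5.51 elsewhere. Sparc, a matrix protein, was at 12.32, 7.49 and 6.50 in GFP-positive arrays, against 5.49, 5.37 and 5.95 in GFP-negative arrays, so all GFP-positive arrays lay above. Serping1, an inhibitor of complement, was at 10.23 in GFP-positive replicate 1 and between 4.48 and 4.96 elsewhere. Lrg1, a secreted glycoprotein of vessels, was at 11.46 there and between 5.83 and 6.21 elsewhere. Chrdl1, an antagonist of BMP, was at 8.58 there and between 3.33 and 3.49 elsewhere. Of the 20 genes with the largest gap 6 were members of the endothelial module, and of the 100 largest 15 were. The module holds 37 of the 18194 genes and was chosen with the height of this array known, so these counts only describe it.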
